A study of Mus musculus with 40 samples.

Results

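Scara5 (ENSMUSG00000022032.8) lies on the plus strand of mouse chromosome 14, at chr14:66285240-66383663 in mm9, and encodes scavenger receptor class A member 5. DNA methylation along this gene was described from every CpG listed between chr14:66280000-66385000 in reduced representation bisulfite sequencing (RRBS) of liver, which gave 16 CpGs of the 400298 in the whole data set. The 1000 bp bin at chr14:66378001-66379000, which spans an intron-exon border, holds 9 of the 16 and is called the border bin here. It was chosen because its methylation differed between diet groups in these same mice, so its differences are given as a description, with no test. The other 7 CpGs, called the rest of the gene, were tested where their coverage allowed it, which left 6.

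The mice were 40 males of strain C57BL/6J, aged 9 weeks, with 10 in each of 4 groups. Dams ate either a low fat (LF) or a high fat (HF) diet from before mating until weaning of the pups, and the sons of each cage were then divided between the LF and the HF diet. The groups are written with the maternal diet first, so that HF-LF animals were born from HF fed dams and fed LF after weaning. The 4 groups are LF-LF, LF-HF, HF-LF and HF-HF. Litters are not given in the labels, so littermates may stand in several groups, and every p-value here treats the mice as independent.

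SCARA5 is a transmembrane receptor that binds ferritin and brings iron into cells by a route separate from the transferrin receptor. Its extracellular part carries a collagen-like stretch and, at the end of the protein, a scavenger receptor cysteine-rich domain. In mammals a CpG within the body of a gene is usually methylated, while CpG-rich starts of active genes are usually not. RRBS cuts DNA with MspI at CCGG and sequences the ends of the fragments after bisulfite treatment, so that it reads only CpGs within 50 bp of a cut. The percent of reads that kept a cytosine at a CpG is its methylation level.

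The 9 CpGs of the border bin lie close together, and the stretch from the first cut to just beyond the last CpG, chr14:66378372-66378530, is shown because it holds all 9 measured CpGs of the bin, which has 25 CpGs in the reference. It is the plus strand of the mm9 reference, 159 bases long, with the measured CpGs in capitals.
Scara5 border bin: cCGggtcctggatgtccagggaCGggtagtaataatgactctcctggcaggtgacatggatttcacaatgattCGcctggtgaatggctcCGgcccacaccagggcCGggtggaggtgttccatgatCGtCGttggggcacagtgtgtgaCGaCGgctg

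Its first 50 bases are the end of an intron, at chr14:66378372-66378421, and close with the ag that precedes an exon. The 2 capital CpGs there, 66378373 and 66378394, are the intron CpGs.
Intron side: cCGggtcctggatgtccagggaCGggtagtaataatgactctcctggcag
The following 109 bases belong to exon 8 of the longest transcript, which spans chr14:66378422-66378616, is 195 bp long and codes for the start of the cysteine-rich domain. The other annotated transcripts end before this exon, at 66363780 and 66363628.
Exon side: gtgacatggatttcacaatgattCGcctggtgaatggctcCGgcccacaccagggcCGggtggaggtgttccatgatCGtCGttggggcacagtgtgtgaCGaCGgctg

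The 9 CpGs were covered by reads from 3 cuts, and CpGs of a cut share reads. The intron CpGs came from plus strand reads that start at 66378372 (read 1). CpGs 66378446 and 66378463 came from minus strand reads of the cut at 66378461 (read 2). CpGs 66378478, 66378499, 66378502, 66378522 and 66378525 came from plus strand reads of the cut at 66378477 (read 3). The 9 values are therefore closer to 3 measurements per mouse than to 9.

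Across the remainder of the gene, RRBS covered few CpGs. The reference holds 1063 CpGs and 81 CCGG sites in the region, and the listed CpGs outside the bin fall at 2 places. No listed CpG lay between 1000 bp before and 500 bp after the first start of the gene, a window with 24 reference CpGs and 1 CCGG, so methylation of this promoter was not measured. None lay in the flanks of the gene. Around the start of a shorter transcript, at 66295314, 5 CpGs were listed: 66295302 and 66295310 in the intron just before that start, and 66295328, 66295329 and 66295589 in its non-coding first exon.
Around the start of the shorter transcript, chr14:66295297-66295335: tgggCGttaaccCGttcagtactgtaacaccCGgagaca
End of its first exon, chr14:66295581-66295595: tctcctcCGgttcag
In these lines 66295328 and 66295329 are the 2 strands of 1 CpG. The remaining pair, 66349432 and 66349447, lies in coding exon 4, with 28926 bp between it and the first CpG of the border bin.
Exon 4, chr14:66349427-66349453: gcctcCGggacatgcagctgCGgctgc

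Coverage differed widely between mice, which had between 2969907 and 23345592 reads summed over all listed CpGs, with a median of 9245709.5. Values with fewer than 10 reads were missing. In the border bin the reads per mouse ran from 13 to 56 at CpG 66378373 and from 10 to 51 at CpG 66378499. Mouse 13 (LF-LF) had no intron value, and mice 181 and 182 (HF-HF) had no exon value, so their bin means rest on the other side of the border alone. One HF-HF animal, mouse 52, stood apart from the other 9 of its group in the bin, and the differences of the bin mean between diets that involve this group are given with and without it.

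The border bin was intermediately methylated, while the rest of the gene was highly methylated in every group. Over the 40 mice the bin averaged 56.3% ± 13.8 (SD) and the rest of the gene 83.8% ± 4.3. Within single mice the bin minus the rest was −27.5 ± 13.8 percentage points (mean and SD), and the bin was lower in 39 of the 40 mice. The gap was smallest in HF-LF animals, at −11.5 points, and largest in HF-HF animals, at −38.3 points. The bin had been set against the rest by the choice of members, and the gap is given without a test.

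Bin means per mouse separated most of the animals by post-weaning diet (plot of border bin and rest of the gene per mouse). LF-LF animals ran from 48.8% through a median of 60.6% to 70.8%, with a mean of 60.5% ± 8.88 (SD, n = 10). LF-HF animals ran from 42.9% through 48.2% to 53.2%, with a mean of 48.4% ± 3.11 (SD, n = 10). In the HF-LF group values ran from 56.0% in mouse 54 through 74.4% to 84.1%, with a mean of 72.3% ± 7.87 (SD, n = 10). HF-LF animals were thus the most methylated group, and LF-HF animals the least variable. HF-HF animals ran from 35.7% through 41.2% to 75.4% in mouse 52, with a mean of 44.1% ± 11.5 (SD, n = 10), and the next highest animal had 46.0%.

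**Figure D1:**
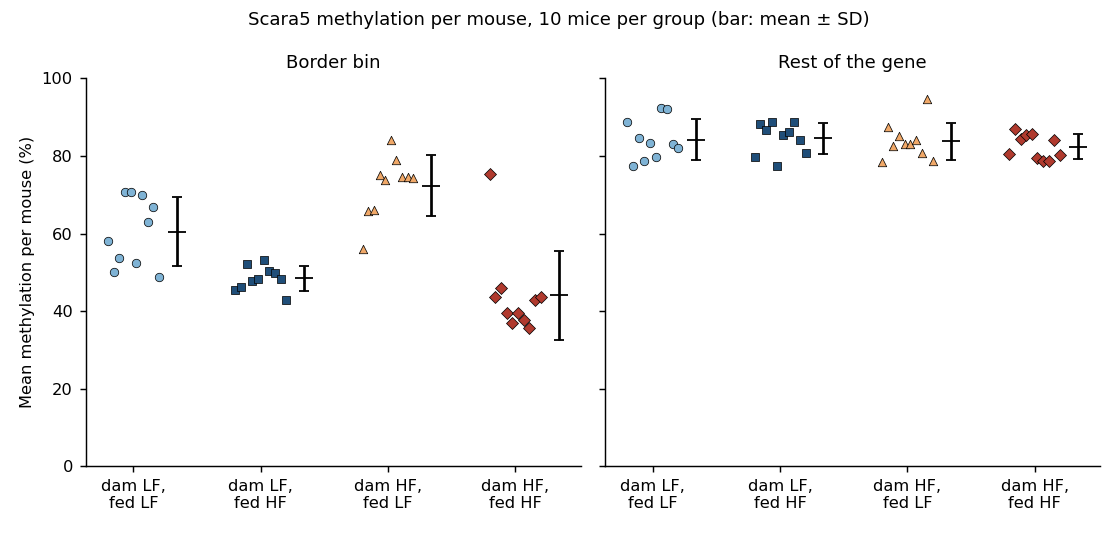
Mean methylation per mouse (%) over the 9 CpGs of the border bin (left) and the 6 tested CpGs of the rest of the gene (right) in the 4 diet groups, named by the diet of the dam and the diet fed after weaning. Points are mice (n = 10 per group) and bars are mean ± SD. In the border bin 9 of 10 HF-HF animals sit below all HF-LF animals, with mouse 52 at 75.4%, whereas in the rest of the gene all 4 groups overlap between 77.4% and 94.8%.

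Post-weaning HF went with lower methylation of the border bin in animals of both maternal diets. Among offspring of HF dams, HF minus LF was −28.2 percentage points, and 9 of 10 HF-HF animals lay below the lowest HF-LF animal. Without mouse 52 the difference was −31.7 points and the groups did not overlap. That absence of overlap was met by 0.00326% of all bins with all mice and by 0.0228% of 30688 bins without mouse 52, and since the bin was chosen on its differences between these groups nothing is read from it. Among offspring of LF dams the difference was −12.0 points, the groups overlapped, 6 of 10 LF-HF animals lay below the lowest LF-LF animal and all 10 below the LF-LF median. The gap between the 2 differences was −16.2 points, or −19.7 without mouse 52, and was not tested.

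Over the bin mean, maternal diet went with differences of opposite sign under the 2 post-weaning diets, but the sign with HF was not stable. With LF after weaning, HF minus LF dams was 11.9 points, and 7 of 10 HF-LF animals lay above the highest LF-LF animal. With HF after weaning the difference was −4.34 points, or −7.82 without mouse 52, and 5 of 10 HF-HF animals lay below the lowest LF-HF animal. Both pairs of groups overlapped. The maternal difference with HF after weaning was −5.74 points over the exon CpGs but 4.92 points over the intron CpGs. It was also positive on read 2, at 1.88 points, and over values with at least 20 reads, at 0.134 points. The 4 comparisons share groups in pairs, so they are not independent of each other.

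Among 30688 bins with at least 3 CpGs, the border bin had the largest difference by size for post-weaning diet among offspring of HF dams, where the median size over all bins was 0.774 points. It ranked 48th for post-weaning diet among offspring of LF dams, 17th for maternal diet with LF and 2037th for maternal diet with HF after weaning. Its SD over all 40 mice ranked 47th, at 13.8 against a median of 3.06 points, but its SD within groups ranked 2028th, at 8.41. Large spread over the mice was thus mostly spread between diet groups, which the choice of the bin favours.

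Single CpGs differed in level and in the size of the gap between diets (plot of the 9 border CpGs). The lowest mean over all mice was that of intron CpG 66378394, at 39.9% ± 14.7 (SD, n = 39), and the highest that of exon CpG 66378525, at 77.4% ± 17 (SD, n = 37). The largest SD between mice, 18.3, was at CpG 66378446 on read 2. At every one of the 9 CpGs the HF-HF mean was below the HF-LF mean, with differences from −11 to −42.2 points. The LF-HF mean was below the LF-LF mean at 8 of 9, with differences from −3.18 to −19.3 points, and above it by 1.06 points at CpG 66378463.

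The largest difference of any comparison was at exon CpG 66378499 on read 3. HF-HF animals had 23.5%, 36.7% and 51.9% as their lowest, median and highest values (mean 37.1% ± 9.29, SD, n = 8). HF-LF animals had 60.9%, 77.5% and 96.2% (mean 79.3% ± 11.5, SD, n = 10). The groups did not overlap here even with mouse 52, which had 14 methylated of 27 reads and was the highest of its group. Of all 262317 tested CpGs, 0.00496% had no overlap between these groups, and as the CpG was picked for its difference nothing is read from it. LF-LF animals had 53.3%, 64.0% and 80% (mean 66.0% ± 7.88, SD, n = 10), and LF-HF animals 35.7%, 55.1% and 63.6% (mean 51.8% ± 10.4, SD, n = 10). LF-LF and LF-HF animals overlapped, and both lay between the groups born from HF fed dams in their means. The SD within groups at this CpG, 9.90, was about that given by read sampling alone, 9.94, while at the other 8 CpGs of the bin it exceeded read sampling, as with 15.8 against 10.4 at CpG 66378446.

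CpG 66378525, at the far end of read 3, had the highest level and the largest difference between LF-HF and LF-LF animals. LF-LF animals ran from 77.8% through 87.5% to 97.2% (n = 9), and LF-HF animals from 50% through 68.8% to 77.8% (n = 10). HF-LF animals ran from 82.6% through 92.3% to 100% (n = 10), and HF-HF animals from 40% through 54.0% to 96.3% (n = 8). Apart from mouse 52, at 26 methylated of 27 reads (96.3%, 95% Wilson interval 81.7% to 99.3%), every HF-HF animal was below every HF-LF animal, which without mouse 52 held, in either direction, for 0.00877% of all tested CpGs. This too follows from how the bin was chosen and supports nothing. Post-weaning HF minus LF was −34.8 points among offspring of HF dams and −19.3 points in those of LF dams.

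**Figure D2:**
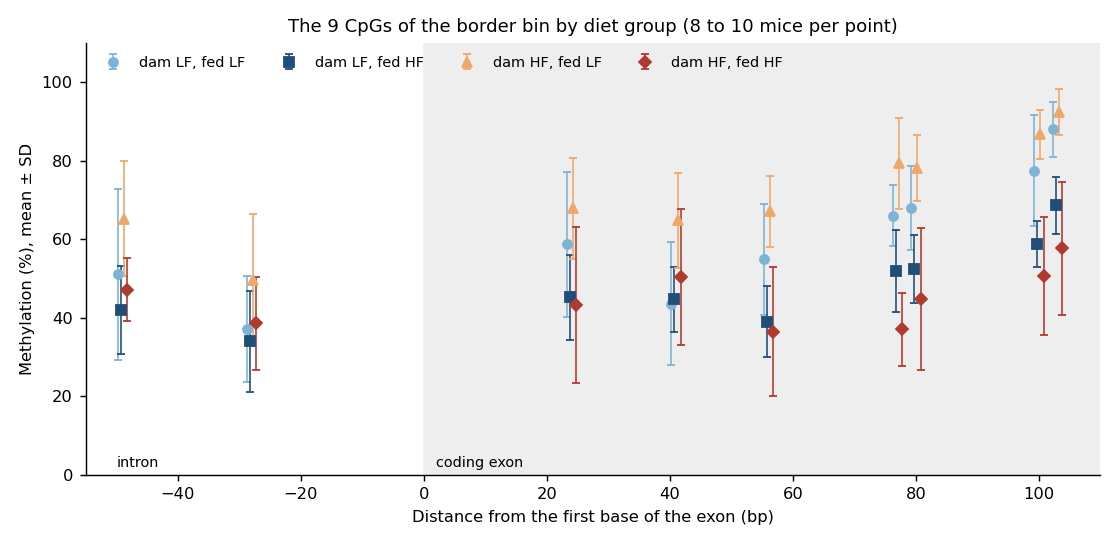
Methylation (%, mean ± SD over 8 to 10 mice) of the 9 CpGs of the border bin in each diet group, against the distance in bp from the first base of the exon, with groups set slightly apart. HF-LF animals have the highest mean at all 9 CpGs, and the gap to HF-HF animals is widest at CpG 66378499, 79.3% against 37.1%.

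The post-weaning gap was smaller on the intron side, whereas the maternal difference with LF after weaning was 13.3 points over the intron CpGs and 11.8 points over the exon CpGs. Over the 2 intron CpGs, HF-LF animals averaged 57.4% ± 13.7 (SD, n = 10) and HF-HF animals 42.9% ± 9.28 (SD, n = 10), so that HF minus LF was −14.5 points, with overlapping groups. Over the 7 exon CpGs the means were 76.6% ± 7.13 (SD, n = 10) and 45.7% ± 13.9 (SD, n = 8), and HF minus LF was −30.9 points, or −35.6 without mouse 52. The maternal difference in animals fed HF after weaning was 4.92 points in the intron and −5.74 points in the exon, or 2.66 and −10.5 points without mouse 52. Within the exon it was 1.88 points on read 2 and −8.81 points on read 3, or −3.94 and −13.1 points without mouse 52, so with all mice the negative value came from read 3. Whether the sides or reads differed was not tested.

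By read, post-weaning HF minus LF among offspring of HF dams was −14.5 points on read 1, −19.5 on read 2 and −35.4 on read 3, or −16.8, −25.3 and −39.7 points without mouse 52. In those of LF dams the values were −6.12, −6.22 and −16.6 points. Both maternal backgrounds thus had their largest difference on read 3. Reads 1 and 2 start from the 2 ends of the same MspI fragment, on opposite strands, and read 3 comes from another fragment. Over the mice, read 1 and read 2 had Pearson's r = 0.630 (n = 36), read 1 and read 3 r = 0.518 (n = 37), and read 2 and read 3 r = 0.623 (n = 37). After subtraction of the group means these were 0.493, 0.413 and 0.491. The reads of a mouse share its library, and these values are a description with no test. None of the reads followed the rest of the gene closely, with r of 0.189, 0.0463 and 0.0897.

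Methylation also changed along read 3, away from its cut. The CpG farthest from the cut, 66378525, exceeded the nearest, 66378478, in all 37 mice with both values, by 28.2 ± 11.2 points (mean and SD) over 47 bp. The means were 50%, 59.7%, 61.6%, 69.1% and 77.4% in order along the read. The rise was present in every group, from 21.2 points in HF-HF to 35.9 points in LF-LF animals. For comparison, among 125 reads on chromosome 14 with a mean level of 20% to 80%, a first CpG at the cut and a last CpG at least 40 bp from it, the median of the same difference was −1.44 points and the quartiles −11.8 and 9.50. On read 1 the order was reversed: the farther CpG minus the nearer one was −11.5 ± 12.4 points (mean and SD), and the farther was higher in 5 of 39 mice. On read 2 it was 3.49 ± 14.4 points (mean and SD), with the farther CpG higher in 20 of 37 mice and group means from 15.1 points in LF-LF to −7.19 points in HF-HF animals.

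Mouse 52 was the highest of its group at all 9 CpGs of the border bin. At CpGs 66378446 and 66378463 it had 85% and 90%, from 20 reads each. The next HF-HF animal at 66378463 had 57.1%, and the Wilson intervals of both animals, 69.9% to 97.2% and 36.5% to 75.5%, overlapped. At 66378525 mouse 52 had 96.3% and the next HF-HF animal 60.7%, and there the intervals did not overlap. Outside the bin the values of mouse 52 were 69.2% to 96.2%, with 88.5% and 69.2% at the 2 CpGs of exon 4, the second of which was the lowest of its group. Mouse 54, the lowest HF-LF animal, had 35.6% and 26.7% at the intron CpGs and 87.0% at CpG 66378525. Without mouse 54 the post-weaning difference among offspring of HF dams was −30.1 points.

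Outside the border bin the groups had nearly the same levels (plot of group means along the gene). The 6 tested CpGs averaged 84.2% ± 5.32 in LF-LF, 84.6% ± 4.0 in LF-HF, 83.8% ± 4.76 in HF-LF and 82.4% ± 3.20 in HF-HF animals (SD, n = 10 each). Values per mouse lay between 77.4% and 94.8% and overlapped between all groups. Post-weaning HF minus LF was −1.42 points among offspring of HF dams, or −1.21 without mouse 52, and 0.383 points in those of LF dams. Maternal HF minus LF was −2.20 points with HF after weaning, or −2.0 without mouse 52, and −0.404 points with LF after weaning. Over only the mice with a value at every CpG, the difference among offspring of LF dams was 4.71 points and the maternal difference with LF after weaning 2.55 points, so these small differences depended on which mice were used.

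**Figure D3:**
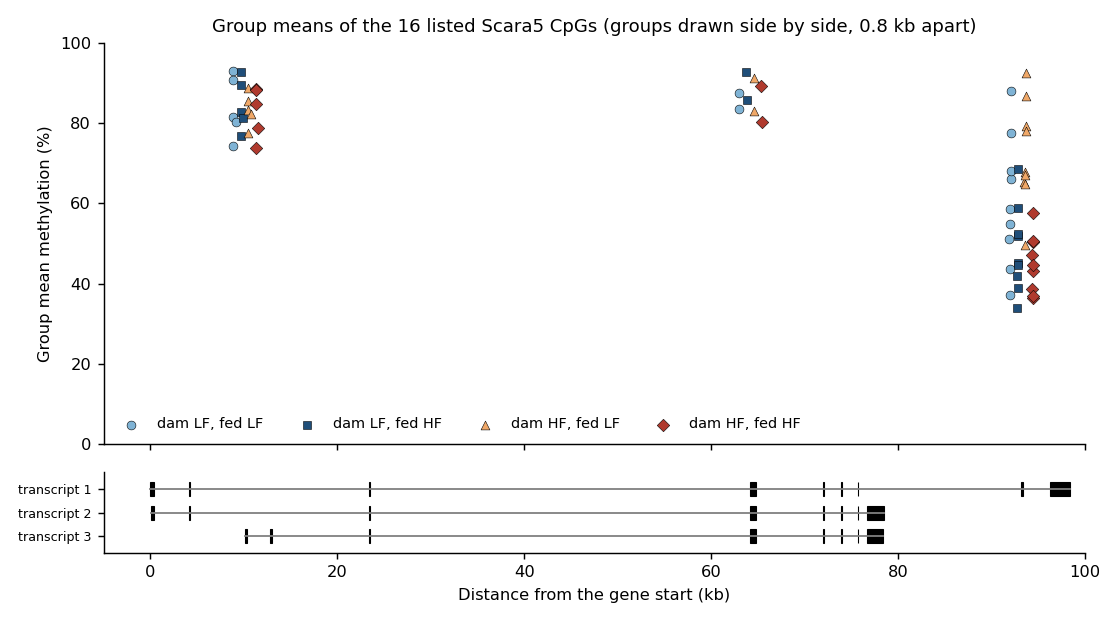
Group means of methylation (%, no error drawn) of all 16 listed CpGs against the distance from the gene start in kb, with the 3 annotated transcripts beneath as lines and their exons as black boxes. The 7 CpGs before the border bin have group means from 73.7% to 93.0%, while those of the border bin spread from 33.9% to 92.5%.

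Each of the 6 CpGs was tested in the 4 pair-wise comparisons and in models over all 40 mice. No Scara5 CpG outside the bin reached an FDR below 5% in the pair-wise tests, which adjust over all CpGs, and none had an unadjusted p below 0.05. With an exact Wilcoxon test in their place, 1 CpG had an unadjusted p below 0.05, for maternal diet with HF after weaning. For maternal diet, the shares of all tested CpGs with an FDR below 5% were 0% with HF and 0% with LF after weaning, and those with an unadjusted p below 0.05 were 3.72% and 3.99%. For post-weaning diet they were 0.00084% and 4.03% among offspring of LF dams, and 0.00124% and 4.06% in those of HF dams. The count of 0 of 6 is near this background.

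Differences at these 6 CpGs lay between −5.40 and 5.15 points over the 4 pair-wise comparisons. The lowest FDR of each comparison lay between 0.813 and 0.822, and CpGs are named below by the lowest p of the pair-wise test, with an exact permutation p beside it. Maternal diet with HF after weaning had its lowest p and largest fall at exon 4 CpG 66349447, with 80.3% in 9 HF-HF against 85.7% in 8 LF-HF animals (exact permutation test, two-sided, p = 0.183), and its largest rise, 1.81 points, at 66295302. With LF after weaning the lowest p and largest fall were at 66295329 beside the start of the shorter transcript, with 85.5% in 10 HF-LF against 90.8% in 8 LF-LF animals (exact permutation p = 0.289), and the largest rise, 3.75 points, at 66349432. None of these differences exceeded the spread between mice.

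For post-weaning diet the pattern was as flat. Among offspring of LF dams all 6 CpGs were higher with HF, by 1.01 to 5.15 points, and the lowest p was at 66349432, with 92.7% in 8 LF-HF against 87.5% in 9 LF-LF animals (exact permutation p = 0.415). Among those of HF dams the lowest p was at 66349447, with 80.3% in 9 HF-HF against 83.1% in 10 HF-LF animals (exact permutation p = 0.246). The largest fall there was −3.84 points at 66295310, and the largest rise 2.73 points at 66295329.

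Linear models over all 40 mice gave the same count. For maternal diet, post-weaning diet and their interaction, 0 of 6 CpGs had an FDR below 5% or an unadjusted p below 0.05, against genome-wide shares of 0%, 0.00236% and 0% for the first and 3.96%, 4.34% and 4.18% for the second. The lowest p was that of maternal diet at 66295329, where HF minus LF was −4.82 points (FDR = 0.874). The largest interaction, −7.32 points, was at 66349432 (FDR = 0.868).

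A single other Scara5 bin held at least 3 tested CpGs, the bin at the start of the shorter transcript, chr14:66295001-66296000. Its group means were 82.9% in LF-LF, 81.8% in LF-HF, 82.2% in HF-LF and 80.9% in HF-HF animals, and its differences lay between −1.29 and −0.756 points. Among offspring of LF dams the bin difference was −1.13 points although each of its 4 CpGs was higher with HF, and there 3 bin means rested on 1 CpG each, mouse 209 (LF-HF) at 63.6% and mice 133 and 134 (LF-LF) at 87.5% and 90.5%. It did not reach an FDR below 5% in any comparison (FDR 0.963 to 0.992), where 0% of bins did for maternal diet with either post-weaning diet, 0.00326% for post-weaning diet among offspring of LF dams and 0% in those of HF dams.

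**Figure D4:**
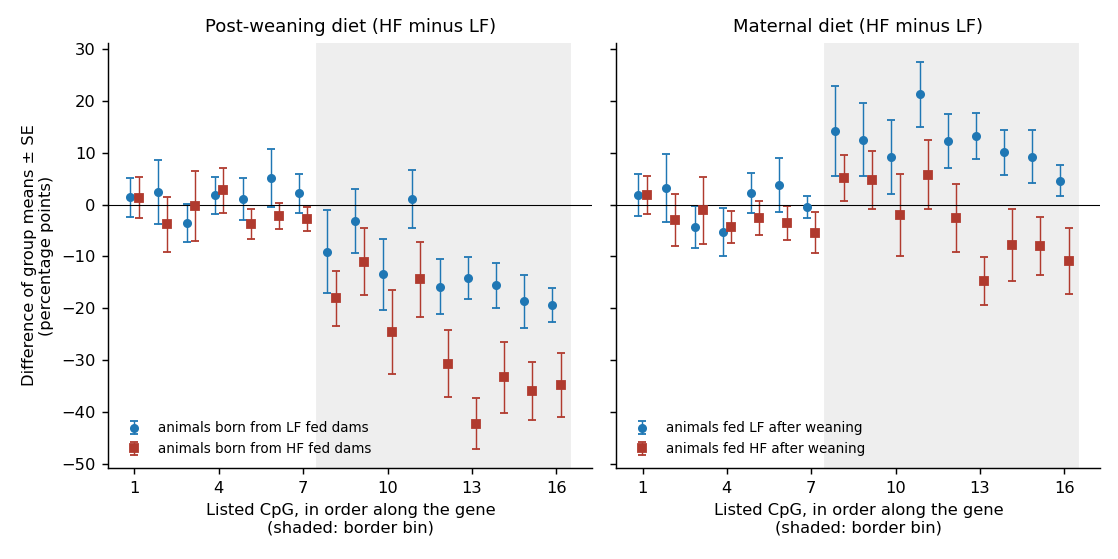
Difference of group means (HF minus LF, percentage points, ± SE) at the 16 listed CpGs in order along the gene, for post-weaning diet (left) and maternal diet (right), with the border bin shaded. CpGs 1 to 7, outside the bin, lie between −5.40 and 5.15 points in both panels, while within the bin post-weaning differences reach −42.2 points among offspring of HF dams.

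The bins whose methylation most resembled the border bin over the mice were on other chromosomes. Of 30683 bins more than 100000 bp away, the highest Pearson's r was 0.713 (39 mice) at chr12:112225001-112226000, 7751 bp from Ankrd9, followed by 0.703 (36 mice) in 4930412C18Rik and 0.676 (40 mice) in Zkscan5, a zinc finger gene. Next were 0.645 (39 mice) at a bin 10968 bp from Dcun1d4, a gene of the neddylation machinery, and 0.636 (39 mice) in Rarres1, a gene that responds to retinoids. The values of a mouse at different bins share its library and depth, and the bins were picked as the most alike of many. At the Zkscan5 bin the group means were 85.5% in LF-LF, 76.8% in LF-HF, 85.6% in HF-LF and 72.2% in HF-HF animals, and mouse 52 had 88.3%. At the Rarres1 bin they were 33.2%, 26.0%, 41.2% and 23.3% in the same order, and mouse 52 had 20.2%. Mouse 52 lay above the HF-HF mean at 4 of the 5 bins and below it at the Rarres1 bin. After subtraction of the group means r was 0.578, 0.542, 0.422, 0.240 and 0.0162 in the order of the 5 bins, so that at the Rarres1 bin the likeness was in the group means. Without mouse 52 it was 0.696, 0.685, 0.667, 0.653 and 0.712 before that subtraction.

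Other genes of iron handling and other class A scavenger receptors were set beside all CpGs. None of their CpGs had an FDR below 5% in the 4 comparisons, where 0% to 0.00124% of all CpGs did, so the count of 0 is no result about these genes. Of 20 genes, 19 of them in the annotation, for iron uptake, storage and control, such as the transferrin receptor gene Tfrc and the ferroportin gene Slc40a1, 13 had 162 tested CpGs between 1000 bp before the start and the end of the gene. For post-weaning diet among offspring of HF dams, 7 of 146 had an unadjusted p below 0.05 (4.79% against 4.06% of all CpGs), 6 lower and 1 higher with HF, with a median difference of −0.530 against −0.211 points over all CpGs. In those of LF dams it was 6 of 145 (4.14% against 4.03%), all lower, with a median of 0.285 against 0.0832 points. For maternal diet it was 3 of 146 with HF (2.05% against 3.72%, 3 lower; median −0.342 against −0.151 points) and 5 of 144 with LF after weaning (3.47% against 3.99%, 3 higher and 2 lower; median 0.295 against 0.164 points). These shares lay within 2 percentage points of those of all CpGs.

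Of the 4 other class A scavenger receptors, Scara3, Colec12 and Marco had 50 tested CpGs, and Msr1 had none. For post-weaning diet, 3 of 47 CpGs had an unadjusted p below 0.05 (6.38% against 4.06% of all CpGs) among offspring of HF dams, all higher with HF, and 2 of 46 (4.35% against 4.03%) in those of LF dams, both lower. For maternal diet it was 3 of 47 (6.38% against 3.72%) with HF, 2 higher and 1 lower, and 1 of 47 (2.13% against 3.99%), lower, with LF after weaning. The median differences, in the order just given, were 0.0950, 0.0567, −0.286 and −0.891 points, against −0.211, 0.0832, −0.151 and 0.164 points over all CpGs.

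Liver is a mixture of cells, and in bulk tissue a change of methylation within cells and a change in the shares of cell types cannot be told apart. Promoters of cell type markers were covered for few genes, and that of the albumin gene Alb had no tested CpG. Of 14 hepatocyte genes 4 had promoter CpGs, from 3.01% at Foxa2 to 33.8% at Pck1, and the mean over the 4 ranged from 17.1% in HF-HF to 21.1% in LF-HF animals. Among leukocyte genes the promoter of Lck was at 5.63%. Of 4 stellate and fibroblast genes Lrat (2.92%) and Des (12.4%) were covered, with means of 7.48% to 8.10%, and none of 5 myeloid and Kupffer genes was. The part of cell shares in the border bin differences was not tested. Depth moved little with the bin, with Pearson's r = 0.184 between the bin and the log10 of total coverage over the 40 mice and 0.0717 after subtraction of group means.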

How the data were processed

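Liver DNA of 40 mice was measured by RRBS. The authors cut DNA with MspI, sequenced single-end reads of 50 bp and aligned and called them with Bismark on mm9 (versions not given in the sources used here), and deposited counts of methylated and total reads per CpG and mouse. Totals under 10 reads are missing in the deposited counts, and such values were left out. The authors also deposited the methylated fraction per CpG, which equals the ratio of the counts. No column was left without a mouse (0 unmapped).

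From the counts, percent methylation was computed per CpG and mouse, and 262317 CpGs with values in at least 36 of 40 mice were tested. Groups follow the diets in the labels. Pair-wise comparisons used a two-sided Student's t-test per CpG and per 1000 bp bin with at least 3 CpGs (mean over CpGs), with Benjamini-Hochberg FDR over all CpGs or bins. Both diets and their interaction were fitted in linear models over 40 mice. Single CpGs outside the border bin also got two-sided exact permutation tests. The pair-wise tests per CpG and a linear model of a single pair of groups were checked on simulated reads. That check held no bins, permutation tests or interaction. Python 3.11.15, numpy 2.4.6, scipy 1.17.1, pandas 2.3.3, numba 0.67.0 and matplotlib 3.10.9 were used. Intervals are 95% Wilson intervals and cover counting error only, as reads carry no molecular identifiers.

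Annotation came from GENCODE vM1 on the NCBIM37 reference, the same build as mm9: all 14532 listed CpGs of chromosome 14 lie at a reference CpG. Reads were assigned to a cut by strand and nearest MspI site.

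CpGs were named by rule: in the border bin the highest and lowest mean, the largest SD and the largest difference, and outside it the lowest p, largest rise and largest fall per comparison. The most alike bins are the 5 with the highest r. CpG 66378525 under post-weaning diet, CpGs named for mice 52 and 54 and the change along reads were chosen after their values were seen. The members, the bin and the gene lists were chosen with earlier results of these data known. The summary of the leukocyte marker list is not reported here.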

Additional observations from a re-analysis of the deposited data

Results flagged for a closer look

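Of 80 groups of 7 to 10 values checked for a single animal far from the others, 13 had one, where chance gives about 1 in 20, or 4. Values of 1 mouse at CpGs of the same read are not independent.

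Mouse 52 of the HF-HF group accounted for 5 of the 13. It had 75.4% over the border bin, against 46.0% in the next animal, and 78.9% over the exon CpGs, against 46.8%. At single CpGs it had 90% at 66378463, 84.6% at 66378522 and 96.3% at 66378525, where the next HF-HF animals had 57.1%, 54.3% and 60.7%.

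The other flagged values in the border bin belonged to LF-HF animals and were low. Mouse 199 had 18.2% at 66378373, mouse 201 had 26.3% at 66378463 and mouse 209 had 50% at 66378525.

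Outside the bin, exon 4 CpG 66349432 had 55.6% in mouse 102 (LF-LF), 73.9% in mouse 200 (LF-HF) and 100% in mouse 124 (HF-HF). Beside the start of the shorter transcript, 66295310 had 96.2% in mouse 122 and 66295328 had 56.3% in mouse 124, both HF-HF.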

How the results depend on the processing

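Under the alternatives 85 values kept their side of the threshold or moved by less than the SD between mice, and 2 did not. With the intron CpGs alone, the border bin difference for post-weaning diet among offspring of HF dams was −14.5 points in place of −28.2, and that for maternal diet with HF after weaning 4.92 in place of −4.34. This alternative and those without mouse 52, by exon, with complete mice and with 20 reads in any number of mice were chosen after seeing the data. Maternal diet with HF after weaning also had no stable sign at 20 reads (0.134 points). Leaving out each mouse in turn gave −31.7 to −26.9 and −13.3 to −10.9 points for post-weaning diet among offspring of HF and LF dams, and 10.6 to 13.7 and −7.82 to −3.41 points for maternal diet with LF and HF. Outside the bin the count at an FDR below 5% was 0 in Welch's test, exact Wilcoxon test, quasi-binomial model and all other alternatives, and the exact Wilcoxon test alone gave 1 CpG with an unadjusted p below 0.05 (p = 0.0483, maternal diet with HF). At 20 reads in 36 mice, and at coverage in all 40 mice, no Scara5 CpG remained, so these alternatives gave no value. No paired analysis was possible because the labels give each mouse its own number and do not give litters. At 10 to 69 reads per value, read sampling gave an SD of 6.87 to 10.5 points per CpG, which limits what single CpGs can show.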
